A study of Mus musculus with 8 samples.

Results

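The genes described here are 10 genes of scavenging and efferocytosis, the uptake of modified lipoproteins and of dying cells: *Mertk*, *Axl*, *Gas6*, *Cd36*, *Scarb1*, *Msr1*, *Marco*, *Cd68*, *Olr1* and *Siglec1*. They were taken by name, with earlier results of these data known, so the counts over them that follow are descriptions. All 10 were found among the 47937 genes of the count tables. RNA was sequenced from bone marrow-derived dendritic cells (BMDCs), mouse bone marrow cells grown for 8 days in GM-CSF at 20 ng/ml, a culture that holds dendritic cells and macrophages side by side. The 3x*Grk*-/- cells came from adult mice that carried Vav-iCre, floxed alleles of *Grk2* and *Grk6* (both fl/fl) and *Grk3*-/-. This Cre is active from early hematopoietic precursors on and targets *Grk2* and *Grk6*, 2 of the G protein-coupled receptor kinases, in blood cells, while *Grk3* is deleted in the whole animal. Wild-type (WT) cells came from Cre-negative mice matched for age and sex, and both genotypes were on the C57BL6/J background. Cells were left without stimulus or given LPS, a bacterial cell wall lipid, at 20 ng/ml for 1 day, and each of the 4 groups had 2 libraries. The methods describe RNA extraction in 3 technical replicates, whereas 2 libraries per group were analysed here, and they do not say whether these came from separate cultures or animals. The p-values therefore measure only the spread between these libraries, which may be technical.

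MERTK and AXL belong with TYRO3 to the TAM receptor tyrosine kinases, which bind phosphatidylserine on dying cells through the secreted bridging proteins GAS6 and protein S. The classes of scavenger receptors are unrelated in structure but share ligands such as oxidised lipoproteins, lipids and bacterial surfaces: CD36 and SCARB1 are of class B, MSR1 and MARCO of class A, CD68 of class D and OLR1 of class E, and SIGLEC1 (CD169) binds sialylated surfaces. Most of these proteins are known from macrophages, while AXL is also found on dendritic cells, and several of the genes are regulated by lipid-sensing nuclear receptors, by interferon or by Toll-like receptor ligands.

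Gene counts summed to 4713305 to 6933358 reads per library. Within each stimulation, CPM of the targeted genes was lower in both 3x*Grk*-/- libraries than in both WT libraries, with log2 fold changes of −1.11 for *Grk2*, −0.36 for *Grk3* and −1.19 for *Grk6* without LPS and of −1.89, −0.42 and −1.54 with LPS (each passing the quasi-likelihood test of edgeR at a Benjamini-Hochberg threshold of 0.05). The counts cover whole genes, so reads of exons outside a deletion are included. The libraries did not hold equal amounts of the markers of the cell types in such cultures. CPM, counts scaled to a common library size, summed over 10 macrophage markers lay at 2280 to 2310 in unstimulated WT, 9130 to 9140 in unstimulated 3x*Grk*-/-, 664 to 679 in LPS-stimulated WT and 9900 to 10000 in LPS-stimulated 3x*Grk*-/- libraries, with no marker at the floor of 3 counts. All 10 of these markers were higher in 3x*Grk*-/- cells with LPS, whereas 5 were higher and 4 lower (*Fcgr1*, *C1qa*, *C1qb* and *C1qc*) without LPS. *Lyz2* alone made up 1330, 7080, 286 and 4590 CPM of these sums in the same order of groups. The sum over 10 conventional dendritic cell markers was 10700 to 10800, 5830 to 5920, 7920 to 8410 and 6690 to 6830 CPM in the same order, again with none at the floor. Of these markers, 3 were higher in 3x*Grk*-/- cells without LPS (*Ccr7*, *Itgax* and *Flt3*, by 0.24, 0.19 and 0.95 on the log2 scale) and 6 lower, led in CPM by *H2-Aa* (−1.26) and *H2-Ab1* (−1.67), and 2 were higher with LPS (*Itgax* and *Flt3*, by 2.34 and 1.35) and 8 lower. The sum over 5 eosinophil markers was 905 to 961, 54 to 57.6, 896 to 966 and 36.2 to 42.4 CPM. Neutrophil markers summed to 719 to 765, 528 to 544, 340 to 396 and 188 to 205 CPM. Platelet markers summed to 41.8 to 46.1, 326 to 338, 26.7 to 27.7 and 126 to 127 CPM. Of these, 2 were higher and 1 lower in 3x*Grk*-/- cells in either stimulation, with *Gp9* at the floor. Mast cell and basophil markers summed to between 71.3 and 102 CPM. Of the 6 tested, 1 was higher and 3 lower in 3x*Grk*-/- cells without LPS, and 0 were higher and 3 lower with LPS. *Fcer1a* was at the floor in both 3x*Grk*-/- groups, as was *Ms4a2* with LPS. Lymphocyte markers (5 to 7 of 7 at the floor) and erythroid markers (all 5 at the floor) summed to at most 1.7 CPM in any library. Stromal markers summed to at most 25.6 CPM. In bulk RNA, fewer cells of a type and less RNA per cell cannot be told apart, and the part of these marker differences in the results that follow was not tested.

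RefSeq promoters on GRCm38.p6 were at hand for 7 of the 10 genes, namely *Mertk*, *Axl*, *Gas6*, *Cd36*, *Marco*, *Cd68* and *Olr1*. The RefSeq start used for *Cd36* lies inside the gene as annotated and not at its outer end. The 250 bases upstream of the RefSeq start of 3 of them are shown, 5′ to 3′ on the gene's strand: *Cd68* and *Olr1*, which were among the genes most raised in 3x*Grk*-/- cells, and *Marco*, which went the other way with LPS. Capitals mark matches to the motifs searched.
Cd68: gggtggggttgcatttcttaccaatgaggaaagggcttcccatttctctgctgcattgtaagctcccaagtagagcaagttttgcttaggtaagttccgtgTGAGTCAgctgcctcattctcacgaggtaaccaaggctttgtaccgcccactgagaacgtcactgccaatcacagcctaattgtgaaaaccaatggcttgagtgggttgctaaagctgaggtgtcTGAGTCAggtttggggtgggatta
Olr1: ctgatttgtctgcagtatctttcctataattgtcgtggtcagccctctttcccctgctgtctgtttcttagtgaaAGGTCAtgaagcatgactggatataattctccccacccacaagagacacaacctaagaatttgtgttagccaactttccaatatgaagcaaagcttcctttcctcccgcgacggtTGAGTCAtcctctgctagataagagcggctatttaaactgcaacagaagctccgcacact
Marco: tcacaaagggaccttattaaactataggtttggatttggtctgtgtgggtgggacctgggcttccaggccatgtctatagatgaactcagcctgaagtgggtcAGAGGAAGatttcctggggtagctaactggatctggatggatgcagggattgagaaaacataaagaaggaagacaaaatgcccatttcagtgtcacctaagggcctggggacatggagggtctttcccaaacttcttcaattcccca
All 3 stretches lie on the minus strand, the first at chr11:69666171-69666420, the next at chr6:129507166-129507415 and the last at chr1:120505025-120505274. The capitals in *Cd68* are 2 matches to the AP-1 motif TGANTCA, 149 to 143 and 24 to 18 bases before the start. *Olr1* has the same motif 60 to 54 bases before its start and the nuclear receptor motif AGGTCA 175 to 170 bases before it, and *Marco* has the PU.1 motif AGAGGAAG at 147 to 140 bases. The AP-1 motif was found in 6.75% of the same windows of all 32851 promoters, the PU.1 motif (GAGGAAGT or AGAGGAAG, which can overlap in the same site) in 5.27% and the nuclear receptor motif, which was also present upstream of *Cd36* at 228 to 223 bases, in 14.0%. Letters of the MiT/TFE (TCACGTG or TCATGTG, 6.28% of promoters), MAF (TGCTGAC, 3.81%), interferon response (2.98%) and NF-kB motifs (1.94%) were in none of the 7 windows. Both strands were searched, no match overlapped another in these genes, and a match is a description of letters only. Within the last 100 bases only 1 of the 2 AP-1 matches of *Cd68* and that of *Olr1* remained, against 2.73% of all promoters.

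The first question was how the genotypes differed within each stimulation. Without LPS, *Olr1*, *Msr1*, *Cd68* and *Siglec1* were 5.93-, 4.56-, 4.25- and 3.74-fold as high in 3x*Grk*-/- than in WT cells, *Cd36* and *Gas6* were higher by less, *Mertk* was slightly higher and *Axl* was lower. Of the 9 genes tested, 7 were higher, where 22.1% of all 12000 genes tested were, and 1 was lower, where 22.7% were. Their median log2 fold change was 1.19, and that of all genes 0.00. With LPS, 6 of 9 tested genes were higher in 3x*Grk*-/- cells, against 24.7% of 11830 genes, and 1 was lower, against 24.0%. *Siglec1*, *Msr1* and *Cd68* then differed most, at 25.9-, 16.7- and 15.9-fold the WT level, *Mertk*, *Olr1* and *Cd36* were higher too, *Marco* had the lower level, and *Axl* and *Scarb1* did not pass the test. The median was 1.48 with LPS, and that of all genes −0.01. *Marco* was not tested without LPS and *Gas6* not with LPS because of their low counts, and *Marco* entered the test with LPS and in the LPS responses only through its LPS-stimulated WT libraries, in which it was high, so these counts and medians serve as a description.

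**Figure D1:**
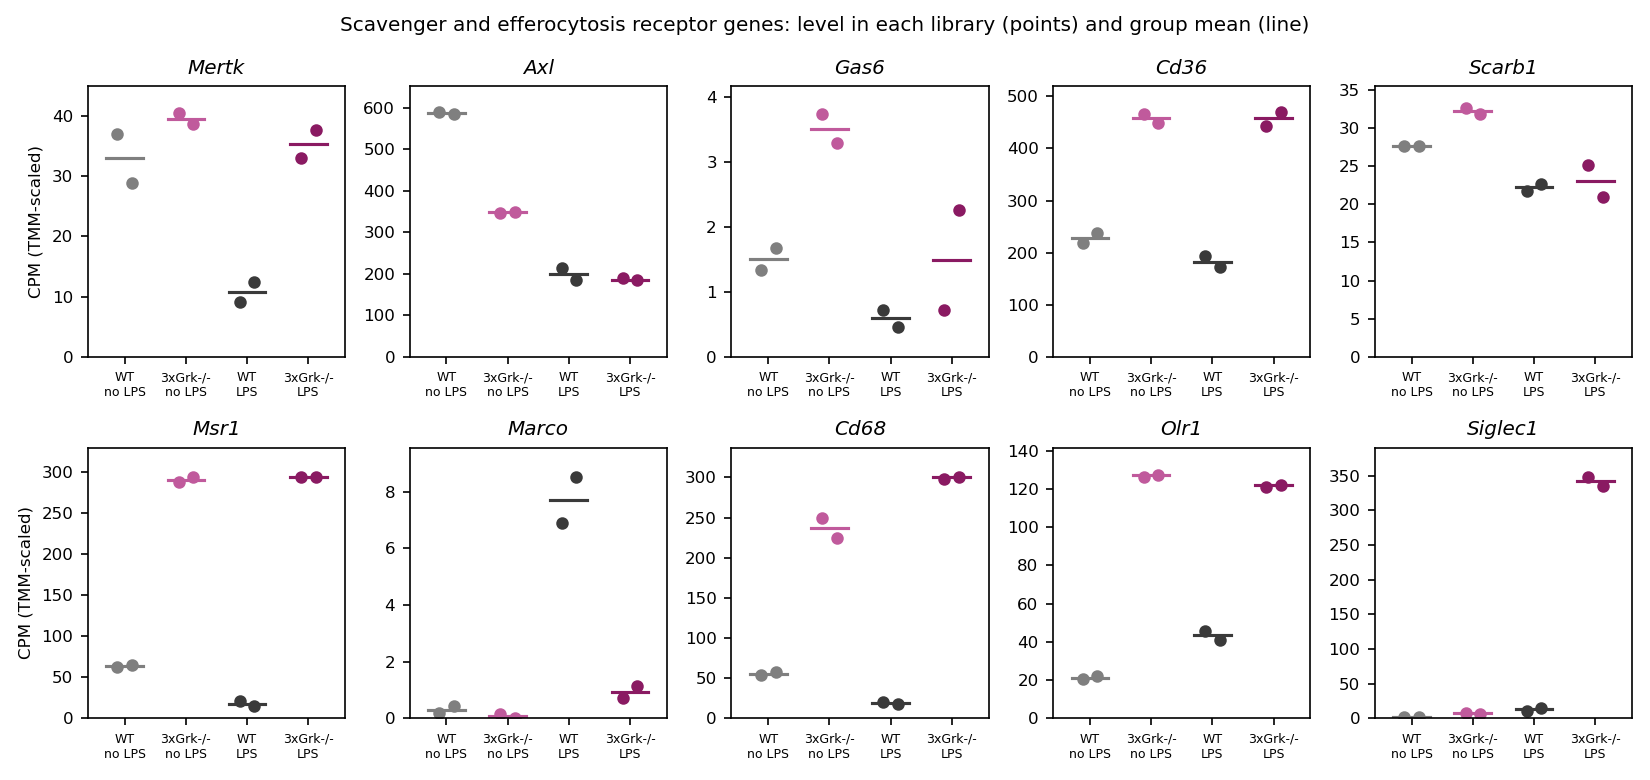
Level of each of the 10 genes in every library, as CPM scaled by TMM on a linear axis from 0 (points: the 2 libraries of a group, line: their mean). *Msr1*, *Cd68* and *Olr1* were high in both 3x*Grk*-/- groups, *Siglec1* reached 335 to 348 CPM only in LPS-stimulated 3x*Grk*-/- libraries, and *Marco* was highest in LPS-stimulated WT libraries.

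Among the TAM genes, *Axl* was lower in 3x*Grk*-/- cells without LPS and *Mertk* was higher in them with LPS. *Axl*, which lies at chr7:25757273-25788705 on the minus strand (ENSMUSG00000002602), had 589 and 584 CPM in the WT and 347 and 349 CPM in the 3x*Grk*-/- libraries without LPS. The 4 values did not overlap, and *Axl* was lower in 3x*Grk*-/- cells (log2 fold change −0.75, SE 0.0401, adjusted p = 2.29e-76 from the quasi-likelihood test of edgeR, adjusted over all genes tested by Benjamini-Hochberg, as for every adjusted p given here). With LPS it had 214 and 186 CPM in WT and 189 and 184 CPM in 3x*Grk*-/- libraries. These values overlapped and *Axl* did not pass the test, with a log2 fold change of −0.10 (95% confidence interval −0.26 to 0.05, adjusted p = 0.263). Its value was 0.009 without WT replicate 1 (adjusted p = 0.921), and it passed at −0.19 without WT replicate 2 (adjusted p = 0.00897) and at −0.19 when scaled by library size only (adjusted p = 0.0388).

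*Mertk* (chr2:128698956-128802894, plus strand, ENSMUSG00000014361), the TAM receptor best known for clearance of dying cells by macrophages, was much scarcer. It had 36.9 and 28.9 CPM in unstimulated WT, 40.4 and 38.6 in unstimulated 3x*Grk*-/-, 9.07 and 12.4 in LPS-stimulated WT and 32.9 and 37.6 CPM in LPS-stimulated 3x*Grk*-/- libraries. Only the LPS-stimulated WT libraries stood well below the others. With LPS *Mertk* was therefore 3.26-fold higher in 3x*Grk*-/- cells (log2 fold change 1.70, SE 0.156, adjusted p = 8.87e-09). The difference without LPS was small (0.29, SE 0.106, adjusted p = 0.0161) and depended on which libraries were used. It was 0.45 without WT replicate 1 (adjusted p = 0.00154), 0.10 without WT replicate 2 (adjusted p = 0.618), and no longer passed the test without 3x*Grk*-/- replicate 1 (0.26, adjusted p = 0.123). It also missed the threshold in DESeq2 (adjusted p = 0.293), with library size only (adjusted p = 0.103) and when all 8 libraries were fitted together (adjusted p = 0.0624).

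*Gas6* (chr8:13465374-13494490, minus strand, ENSMUSG00000031451), the secreted ligand of both receptors, was close to the limit of detection. Its counts were 7 and 12 in unstimulated WT, 25 and 19 in unstimulated 3x*Grk*-/-, 4 and 3 in LPS-stimulated WT, and 4 and 14 in LPS-stimulated 3x*Grk*-/- libraries. Without LPS the genotypes did not overlap (1.51 ± 0.244 against 3.52 ± 0.311 CPM, mean ± SD, n = 2), and *Gas6* was higher in 3x*Grk*-/- cells (log2 fold change 1.19, SE 0.381, adjusted p = 0.00484). This call was lost in DESeq2 (adjusted p = 0.175), without WT replicate 1 (1.06, adjusted p = 0.0611) and without 3x*Grk*-/- replicate 1 (1.10, adjusted p = 0.081). With LPS the ratio of the summed counts was 2.64 (exact 95% interval 1.05 to 7.48, for counting error only), and 3x*Grk*-/- replicate 1, at 0.727 CPM, was level with WT replicate 1 at 0.726 CPM. An exon of *Tmem255b* on the opposite strand overlaps *Gas6*, and the strand setting of the counting is not given in the sources used here, so reads of the pair cannot be told apart.

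Of the class B receptors, *Cd36* differed between the genotypes and *Scarb1* did not pass the test. *Cd36* (chr5:17781690-17888801, minus strand, ENSMUSG00000002944), a receptor for oxidised lipoprotein and long-chain fatty acids, had 218 and 238 CPM in the WT and 467 and 449 CPM in the 3x*Grk*-/- libraries without LPS. With LPS it had 194 and 172 CPM in WT and 444 and 471 CPM in 3x*Grk*-/- libraries. All 4 3x*Grk*-/- libraries were above all 4 WT libraries, with a log2 fold change of 1.0 without LPS (SE 0.0433, adjusted p = 4.63e-115) and of 1.32 with LPS (SE 0.0693, adjusted p = 9.82e-13). *Scarb1* (chr5:125277087-125341094, minus strand, ENSMUSG00000037936), which takes up cholesteryl ester from high-density lipoprotein, lay between 20.9 and 32.6 CPM in all libraries. Its difference was 0.22 without LPS (95% confidence interval 0.00 to 0.45, adjusted p = 0.108) and 0.04 with LPS (−0.25 to 0.33, adjusted p = 0.837), and neither interval reached beyond 0.45.

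The class A receptors went in opposite directions with LPS. *Msr1* (chr8:39581685-39642673, minus strand, ENSMUSG00000025044), the type A macrophage scavenger receptor, had 62.1 and 64.9 CPM in unstimulated WT, 287 and 294 in unstimulated 3x*Grk*-/-, 20.7 and 14.9 in LPS-stimulated WT, and 294 and 294 CPM in LPS-stimulated 3x*Grk*-/- libraries. Its level was nearly the same in all 4 3x*Grk*-/- libraries, and the WT groups lay below them by 2.19 without LPS (SE 0.0568, adjusted p = 2.79e-313) and by 4.06 with LPS (SE 0.103, adjusted p = 5.35e-18) on the log2 scale. *Marco* (chr1:120474538-120505024, minus strand, ENSMUSG00000026390), a receptor for bacteria and particles, had 1 and 3 counts in unstimulated WT and 1 and 0 counts in unstimulated 3x*Grk*-/- libraries, both at the floor of 3 counts per library. With LPS it had 38 and 55 counts in WT but 4 and 7 in 3x*Grk*-/- libraries. The WT level was 8.24-fold that of 3x*Grk*-/- cells by summed counts (exact 95% interval 4.4 to 17.1, for counting error only). Its fitted log2 fold change of −3.01 (SE 0.367) serves as a description, since only the WT libraries, in which *Marco* was high, carried it past the filter on low counts.

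*Cd68* (chr11:69664213-69666153, minus strand, ENSMUSG00000018774), which encodes a lysosomal glycoprotein of macrophages, had 53.5 and 57.7 CPM in unstimulated WT, 250 and 224 in unstimulated 3x*Grk*-/-, 20 and 17.8 in LPS-stimulated WT, and 298 and 301 CPM in LPS-stimulated 3x*Grk*-/- libraries. As with *Msr1*, the lowest 3x*Grk*-/- library was far above the highest WT library, and the log2 fold change was 2.09 without LPS (SE 0.0608, adjusted p = 1.38e-249) and 3.99 with LPS (SE 0.0884, adjusted p = 5.76e-19). *Olr1* (chr6:129485244-129507165, minus strand, ENSMUSG00000030162), which encodes the oxidised low-density lipoprotein receptor LOX-1, had 20.4 and 22.0 CPM in unstimulated WT, 126 and 127 in unstimulated 3x*Grk*-/-, 45.9 and 41.2 in LPS-stimulated WT, and 121 and 122 CPM in LPS-stimulated 3x*Grk*-/- libraries. The 3x*Grk*-/- libraries again formed a narrow band, but here the WT level was higher with LPS. The log2 fold change was 2.57 without LPS (SE 0.0878, adjusted p = 5.25e-183) and 1.48 with LPS (SE 0.089, adjusted p = 9.63e-12), so that *Olr1* was the most changed of the 9 genes tested without LPS.

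*Siglec1* (chr2:131069220-131086765, minus strand, ENSMUSG00000027322), the sialic acid receptor of tissue macrophages and a gene known to respond to type I interferon, had the widest range of the group. It had 1.91 and 1.96 CPM in unstimulated WT, 7.93 and 6.60 in unstimulated 3x*Grk*-/-, 10.9 and 15.2 in LPS-stimulated WT, and 348 and 335 CPM in LPS-stimulated 3x*Grk*-/- libraries. The last pair had 1915 and 2069 counts, against 60 and 98 in LPS-stimulated WT libraries. The 3x*Grk*-/- level of *Siglec1* exceeded that of WT by 1.90 without LPS (SE 0.3, adjusted p = 1.24e-09) and by 4.70 with LPS (SE 0.102, adjusted p = 4.33e-19) on the log2 scale.

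**Figure D2:**
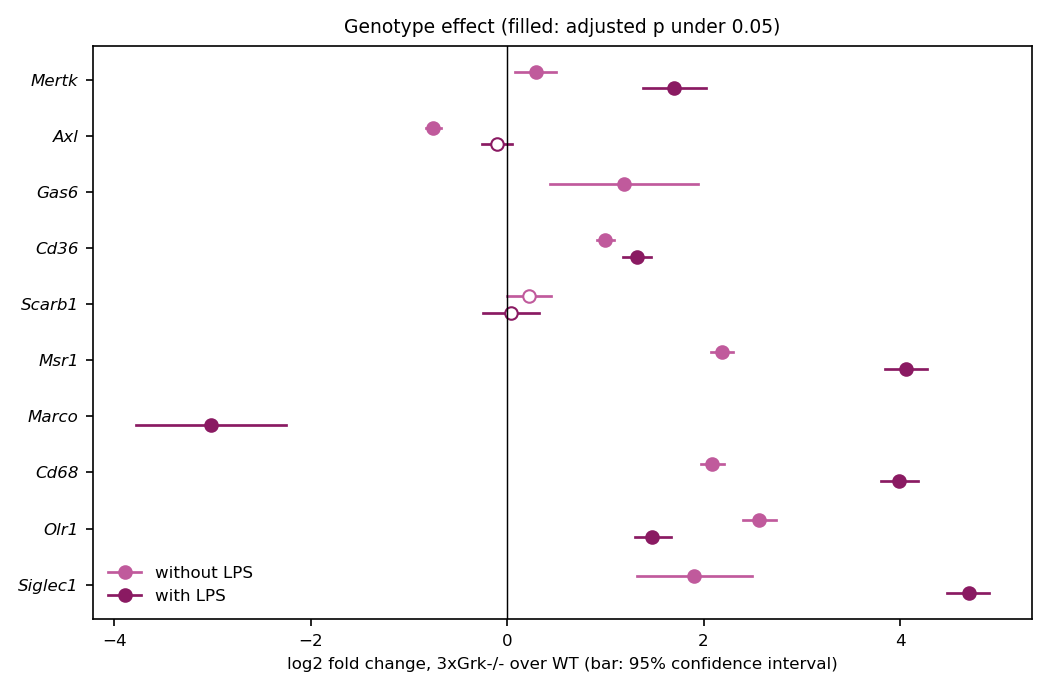
Log2 fold change of 3x*Grk*-/- over WT for each gene, without and with LPS (points; bars: 95% confidence intervals; filled: adjusted p under 0.05). The changes of *Siglec1*, *Msr1* and *Cd68* lay between 1.90 and 2.19 without LPS and between 3.99 and 4.70 with LPS; *Marco* without LPS and *Gas6* with LPS were not tested.

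The next question was how each genotype responded to LPS. In WT cells, 3 of 10 genes were higher with LPS, where 29.5% of 12541 genes were, and 6 were lower, where 30.8% were, with a median log2 fold change of −0.84 beside −0.01 for all genes. The genes that fell were *Msr1* (−1.86, adjusted p = 6.01e-15), *Mertk* (−1.58, adjusted p = 9.75e-10), *Cd68* (−1.57, adjusted p = 1.62e-13), *Axl* (−1.56, adjusted p = 4.35e-19), *Cd36* (−0.32, adjusted p = 7.97e-05) and *Scarb1* (−0.31, adjusted p = 0.03). The call of *Scarb1* was lost whichever of the 4 WT libraries was left out: its change was −0.31 without either unstimulated replicate 1 or 2, −0.28 without LPS-stimulated replicate 1 and −0.34 without LPS-stimulated replicate 2, with adjusted p-values from 0.0595 to 0.104. Those that rose were *Siglec1* (2.75, adjusted p = 1.08e-10), *Olr1* (1.02, adjusted p = 1.47e-09) and *Marco*, whose summed counts went from 4 to 93, a ratio of 24 (exact 95% interval 9.07 to 90.0, for counting error only). *Gas6* had a change of −1.36 and did not pass the test (adjusted p = 0.0604), although it did with library size only (adjusted p = 0.0279).

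In 3x*Grk*-/- cells, 3 of 10 genes were higher with LPS, against 28.0% of 12541 genes, and 3 were lower, against 27.4%, with a median of −0.03 beside −0.01 for all genes. *Siglec1* rose by 5.54 on the log2 scale (adjusted p = 4.32e-26), the largest fitted value of the 10 genes, and *Cd68* rose by 0.34 (adjusted p = 2.07e-05). Whether *Siglec1* rose more than *Marco* is not settled, because of the low counts of *Marco*. *Marco* passed the test (adjusted p = 0.00766) on 11 counts in all with LPS and 1 without, a ratio of 11.7 with an exact 95% interval of 1.71 to 505 for counting error only. Its call was lost without unstimulated replicate 2 (log2 fold change 2.50, adjusted p = 0.0701), without LPS-stimulated replicate 2 (2.89, adjusted p = 0.0735) and in DESeq2 (adjusted p = 0.0552), and its value without unstimulated replicate 1 was 5.53. *Axl* fell by 0.90 (adjusted p = 1.72e-13) and *Scarb1* by 0.49 (adjusted p = 0.000883). *Gas6* passed at −1.19 (adjusted p = 0.016), but this call was lost in DESeq2 (adjusted p = 0.155). Its value was −0.63 without LPS-stimulated replicate 1, −2.25 without LPS-stimulated replicate 2 and −1.09 without unstimulated replicate 1. *Cd36* (0.00, adjusted p = 1), *Msr1* (0.02, adjusted p = 0.815), *Olr1* (−0.06, adjusted p = 0.47) and *Mertk* (−0.16, adjusted p = 0.264) did not pass the test. Their 95% confidence intervals ran from −0.12 to 0.12, from −0.10 to 0.14, from −0.20 to 0.08 and from −0.41 to 0.08 in that order.

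Scaling mattered for these responses. With library size as the only scaling the median of all genes was −0.23 in both, and 5 of the 10 genes changed their call in 3x*Grk*-/- cells. *Cd36* (−0.22, adjusted p = 0.00211), *Msr1* (−0.20, adjusted p = 0.00637), *Olr1* (−0.28, adjusted p = 0.000847) and *Mertk* (−0.38, adjusted p = 0.00729) were then lower with LPS, and *Cd68* no longer passed the test (0.12, adjusted p = 0.0928). In WT cells the same scaling moved *Cd36* to −0.54 (adjusted p = 2.06e-08) and *Scarb1* to −0.53 (adjusted p = 0.00053), both still lower with LPS. Set against the median of all genes, the values of *Cd36* and *Msr1* in 3x*Grk*-/- cells were thus near 0 under either scaling.

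**Figure D3:**
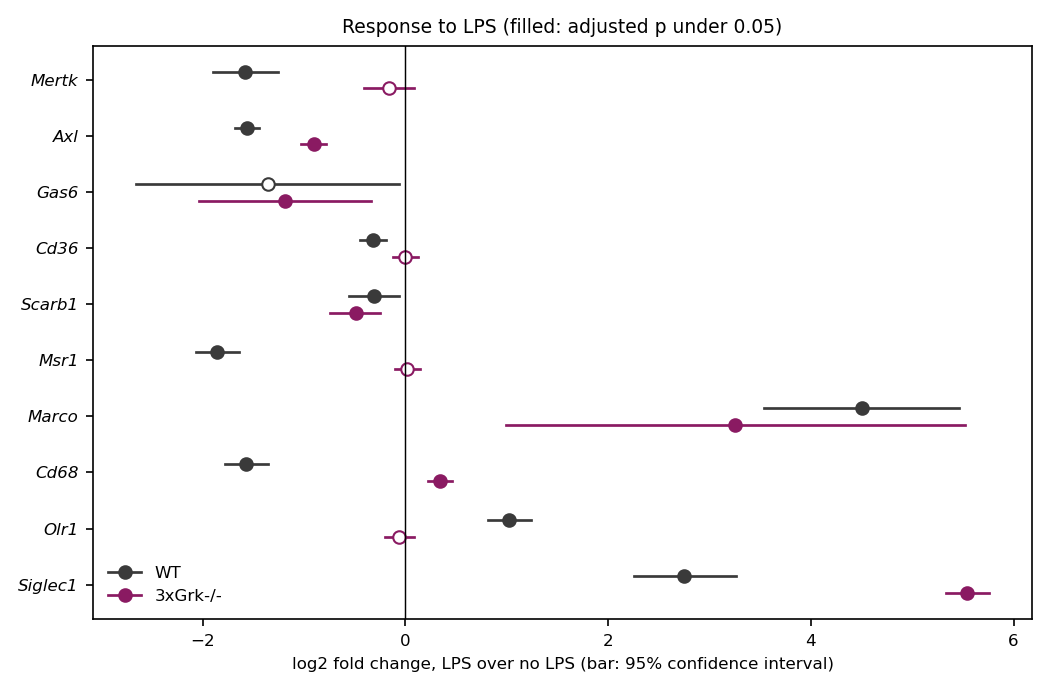
Log2 fold change with LPS over without LPS for each gene in WT and in 3x*Grk*-/- cells (points; bars: 95% confidence intervals; filled: adjusted p under 0.05). *Mertk*, *Msr1* and *Cd68* fell by 1.57 to 1.86 in WT cells, while their values in 3x*Grk*-/- cells lay between −0.16 and 0.34.

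The difference between these responses was tested itself, as the interaction of genotype and LPS over all 8 libraries. It passed the test for 7 of the 10 genes. In 6 of them the genotype effect was more positive with LPS, where 16.5% of 12541 genes were, and in 1 more negative, where 16.0% were, with a median of 0.49 beside 0.01 for all genes. The interaction was 2.79 on the log2 scale for *Siglec1* (adjusted p = 1.58e-06), 1.91 for *Cd68* (adjusted p = 3.76e-13), 1.87 for *Msr1* (adjusted p = 8.9e-13) and 1.42 for *Mertk* (adjusted p = 1.86e-06). Those of *Axl* (0.65, adjusted p = 3.41e-07) and *Cd36* (0.32, adjusted p = 0.00441) were smaller, and *Cd36* missed the threshold without unstimulated WT replicate 2 (0.27, adjusted p = 0.0512). *Olr1* was the gene with the negative interaction (−1.08, adjusted p = 5.12e-08). *Scarb1* (−0.18, adjusted p = 0.463), *Gas6* (0.17, adjusted p = 0.888) and *Marco* (−1.25, adjusted p = 0.712) did not pass, and the value of *Marco* rests on groups at the floor. Whether both stimulations were sequenced in the same run is not given in the sources used here, so a run effect and the response to LPS cannot be told apart.

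Divided by the exon length of each gene, the levels can be set in order. In unstimulated WT cells *Axl* stood first with 117 CPM per kb, before *Cd36* (63.5), *Cd68* (44.2), *Msr1* (10), *Mertk* (7.58), *Olr1* (5.94), *Scarb1* (3.25), *Gas6* (0.592), *Siglec1* (0.271) and *Marco* (0.159 CPM per kb). In unstimulated 3x*Grk*-/- cells the order began with *Cd68* (188), *Cd36* (127) and *Axl* (69.2 CPM per kb), and no neighbours overlapped in either group. In LPS-stimulated WT cells *Cd36* (51.0) and *Axl* (39.7) led, *Marco* (4) had moved up to rank 5, and *Msr1*, *Scarb1*, *Mertk* and *Siglec1* (2.80 to 1.82 CPM per kb) were neighbours whose libraries overlapped. In LPS-stimulated 3x*Grk*-/- cells *Cd68* (238) and *Cd36* (127) were followed by *Siglec1* (47.8), *Msr1* (46.3), *Axl* (37.0) and *Olr1* (34.0), and *Gas6* and *Marco* overlapped at the end of the order.

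Summed over the 10 genes, the level was 252 ± 5.25 CPM per kb in unstimulated WT, 482 ± 17.3 in unstimulated 3x*Grk*-/-, 132 ± 9.63 in LPS-stimulated WT and 543 ± 6.04 in LPS-stimulated 3x*Grk*-/- cells (mean ± SD, n = 2), and both sums of every 3x*Grk*-/- group were above both of every WT group. The make-up of the sum differed as well. *Axl* held 46.3% ± 1.23 of it in unstimulated WT but 14.4% ± 0.58 in unstimulated 3x*Grk*-/- cells, and 30.1% ± 0.762 against 6.81% ± 0.204 with LPS (SD, n = 2). *Cd68* held 17.5% and 39.1% without and 11.4% and 43.9% with LPS in WT and 3x*Grk*-/- cells. *Siglec1* held 8.82% ± 0.329 in LPS-stimulated 3x*Grk*-/- cells and at most 1.7% in any other library. The ratio of *Axl* to *Mertk* per kb was 13.8 and 17.4 in unstimulated WT, 7.41 and 7.81 in unstimulated 3x*Grk*-/-, 20.3 and 12.9 in LPS-stimulated WT, and 4.94 and 4.20 in LPS-stimulated 3x*Grk*-/- libraries, so the genotypes did not overlap in the balance of the TAM receptors.

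**Figure D4:**
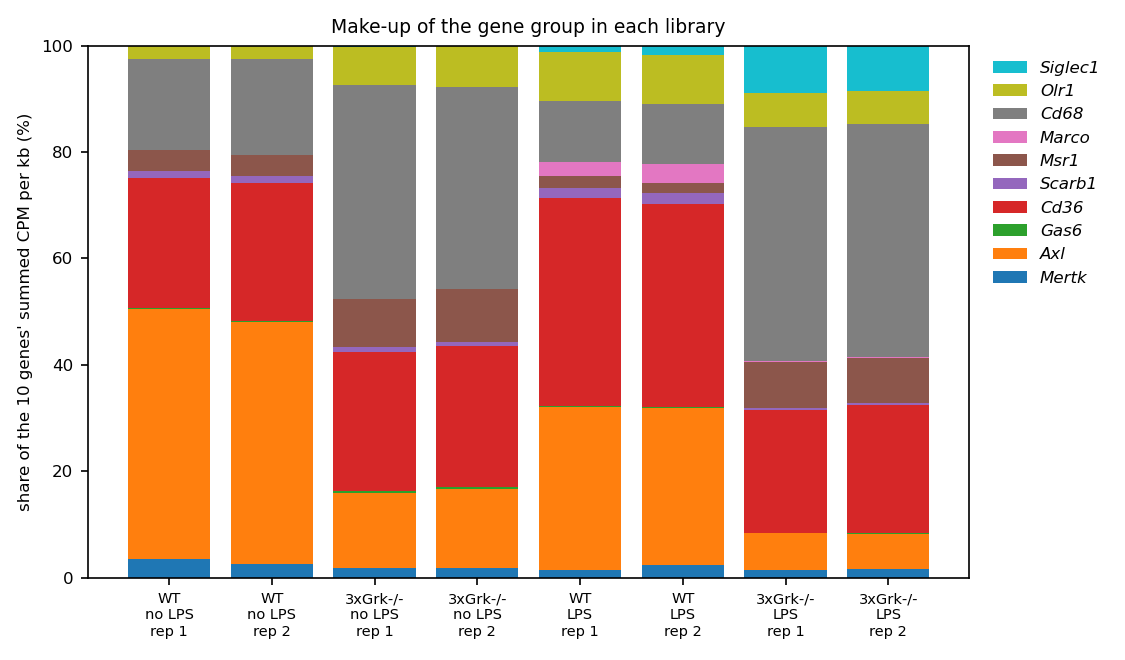
Share of each gene in the summed CPM per kb of the 10 genes, in percent, as 1 stacked bar per library. *Axl* took 45.4 to 47.1% of the sum in unstimulated WT libraries and 6.67 to 6.95% in LPS-stimulated 3x*Grk*-/- libraries, where *Cd68* took 43.7 to 44.1%.

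For the 3 genes with the widest range of group means, the genes with the most similar pattern over the 8 libraries were sought by the root mean square difference of centred log2 values among 11644 others. *Rab7b* was nearest to *Msr1* (0.159 on the log2 scale), followed by *Cd68* (0.184) and *Sirpb1c* (0.243), and *Cd68* was nearest to *Sirpb1c* (0.177), *Msr1* (0.184) and *Rab7b* (0.219). The group means of *Msr1* themselves spanned 4.03 and those of *Cd68* 3.96. *Siglec1*, with a range of 7.13, had no gene as near: *Slfn4* differed by 0.549, *Apol9b* by 0.565 and *Cxcl5* by 0.582. The libraries form 4 groups, so likeness over them is a description of those groups.

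Other genes of the pathway were counted in 6 lists that leave out the 10 genes. Their counts stand beside 22.1% higher and 22.7% lower among all genes tested without LPS, and 24.7% and 24.0% with LPS, and no list was tested against these shares. Of 14 further scavenger receptors, 10 were tested without LPS, of which 5 were higher and 0 lower in 3x*Grk*-/- cells, and 11 with LPS, of which 7 were higher and 1 lower. *Stab1*, which encodes stabilin-1, was higher by 3.06 and 3.42 on the log2 scale without and with LPS, and *Lrp1*, a large endocytic receptor, by 3.17 and 1.13. *Colec12*, a further class A scavenger receptor, had 4 and 3 counts in unstimulated WT and 55 and 46 counts in unstimulated 3x*Grk*-/- libraries, a ratio of 14.3 (exact 95% interval 6.71 to 36.6, for counting error only), and *Cd5l*, a secreted macrophage protein with scavenger receptor domains, had 0 and 2 counts against 29 and 38 with LPS (34.4, 9.15 to 290.0). Only the 3x*Grk*-/- libraries, in which they were high, carried *Colec12* (in both stimulations) and *Cd5l* (with LPS) past the filter, so 1 of the 5 and 2 of the 7 higher genes had to differ.

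Of 15 further phosphatidylserine receptors and bridging molecules, 11 were tested without LPS, with 3 higher (22.1% among all genes), 5 lower (22.7%) and a median of −0.06, and 12 with LPS, with 7 higher (24.7% among all genes), 1 lower (24.0%) and a median of 0.86. *Tyro3*, the remaining TAM receptor, was lower without LPS (−0.84, adjusted p = 0.000723) and had a value of −0.72 with LPS (adjusted p = 0.0846). *Pros1*, which encodes the ligand protein S, was lower in both (−0.51, adjusted p = 0.0159, and −1.06, adjusted p = 0.0433). With LPS, *Cd300lf*, a lipid receptor, was higher by 2.97, *Thbs1*, which encodes the bridging protein thrombospondin-1, by 2.78, *Havcr2* (TIM-3) by 2.68 and *Havcr1* (TIM-1), on 7 counts in WT and 28 in 3x*Grk*-/- cells, by a ratio of 4.10 (exact 95% interval 1.75 to 11.1, for counting error only). *Havcr1* is the 1 gene of the 7 that passed the filter through its 3x*Grk*-/- libraries alone. Without LPS the first 3 had values of 0.40, 1.75 and 0.13, of which that of *Havcr2* did not pass the test. *Mfge8*, a bridging protein named after its values were seen, had, without LPS, 817 ± 16.5 CPM in WT and 286 ± 3.99 CPM in 3x*Grk*-/- cells (SD, n = 2) and was higher in 3x*Grk*-/- cells with LPS (log2 fold changes −1.51 and 0.95).

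Of 13 tested genes for engulfment and processing of the taken-up cell, 6 were higher and 3 lower without LPS (22.1% and 22.7% among all genes) and 3 were higher and 3 lower with LPS, with medians of 0.11 and 0.05. The count with LPS is close to the 24.7% and 24.0% among all genes. *Lamp1* (0.59 and 1.20) and *Lamp2* (0.11 and 1.38), which encode lysosomal membrane proteins, were higher in both, *Dnase2a*, the lysosomal DNase, was lower without and higher with LPS (−0.20 and 1.69), and the engulfment adaptor *Elmo1* had a value of −0.05 without LPS and was lower with LPS (−1.35). Among 5 genes for receptor shedding and inhibitory signals, 3 were higher and 1 lower without LPS and 4 higher and 1 lower with LPS, beside the same shares among all genes. *Adam17*, the protease known to shed MERTK, was higher by 0.38 and 0.54 and *Sirpa*, the receptor for CD47, by 0.74 and 1.51, while *Cd24a* was lower by 0.92 and 0.68 on the log2 scale; *Cd47* had a value of 0.09 without LPS and was higher by 0.35 with LPS.

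Of 10 genes for nuclear receptors, MAF factors and lipid efflux, 7 were higher and 1 lower in either stimulation, with medians of 0.31 and 1.41, beside 22.1% and 22.7% of all genes without and 24.7% and 24.0% with LPS. *Maf* (2.81 and 3.43), the oxysterol receptor gene *Nr1h3* (1.63 and 3.07) and the cholesterol exporter *Abca1* (1.49 and 2.88) were higher in both, and *Pparg* was lower without LPS (−1.21). With LPS *Pparg* had a value of 1.5 and passed the filter through its 3x*Grk*-/- libraries alone. *Nr1h3* was a gene of few reads, with 8 and 5 counts in unstimulated WT and 87 and 95 counts in LPS-stimulated 3x*Grk*-/- libraries. All 11 genes for the handling of oxidised lipid and lipoprotein passed the test (44.7% of all genes did so without and 48.6% with LPS), 10 higher and 1 lower without LPS and 9 higher and 2 lower with LPS, with medians of 0.41 and 1.68. *Apoe* (4.75 and 4.17), which encodes the lipoprotein ligand apolipoprotein E, had, without LPS, 5.54 and 4.48 CPM in WT and 140 and 126 CPM in 3x*Grk*-/- libraries, and *Lpl* (2.32 and 1.68), *Nceh1* (0.36 and 2.39) and *Lipa* (0.81 and 1.97), which encode lipid hydrolases, were higher in both. *Apoe* is also among the 10 macrophage markers, whose summed level differed between the genotypes as given above. *Acat1*, lower in both (−0.28 and −1.04), encodes a mitochondrial acetyl-CoA acetyltransferase, so its place in the list of 11 is loose.

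**Figure D5:**
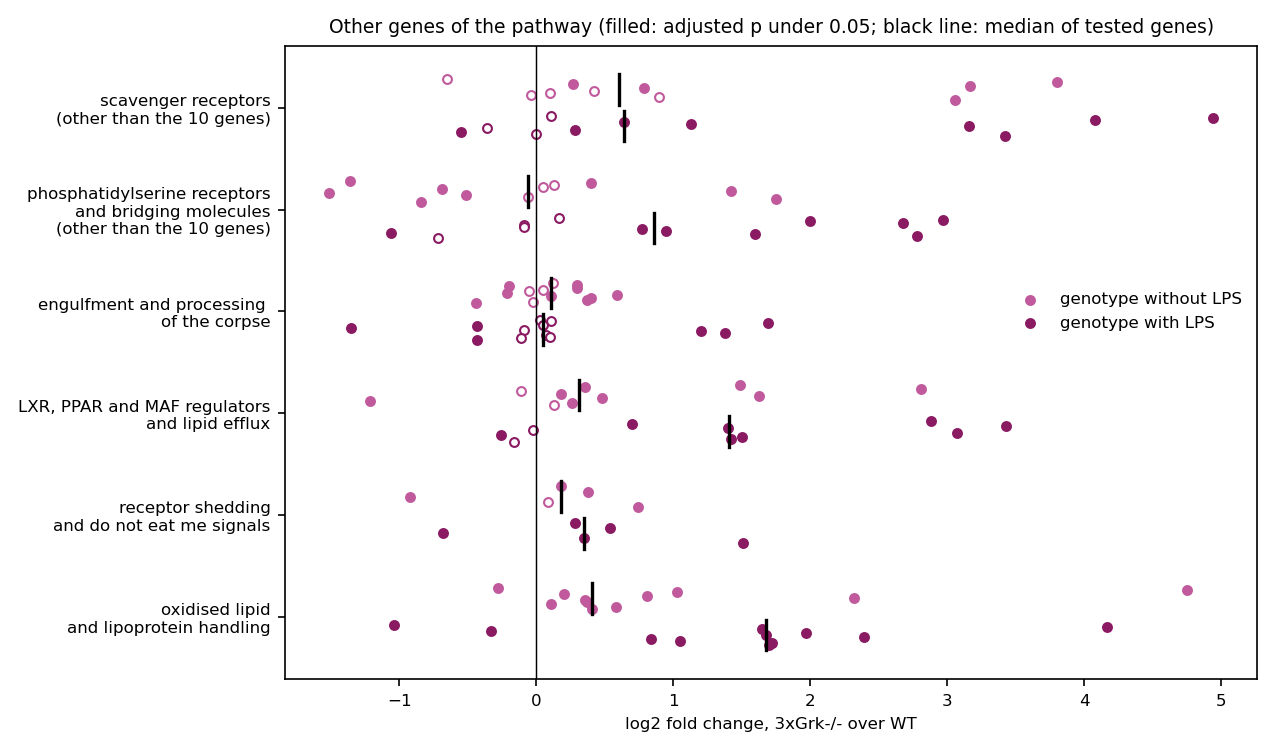
Log2 fold change of 3x*Grk*-/- over WT for the tested genes of 6 lists, without and with LPS (points: genes; filled: adjusted p under 0.05; black line: median of the tested genes). The medians of lipid handling (0.41 and 1.68) and of LXR, PPAR and MAF regulators (0.31 and 1.41) lay further right with LPS, and those of engulfment (0.11 and 0.05) near 0.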

How the data were processed

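Per the methods of the study, reads of a stranded mRNA library were mapped to mm10 with STAR 2.7.3a inside snakePipes 2.1.0, and the authors deposited featureCounts 2.0.0 whole, unnormalized counts for each gene, in 1 table per stimulation. The annotation release and the strand setting are not given in the sources used here. Groups were taken from the sample labels. Of 47937 gene IDs, 47310 were matched to GENCODE M21 (GRCm38), and 0.0468% of the counts lay on the rest. Between 4713305 and 6933358 reads per library set the precision, and exact intervals of summed counts cover counting error only. The chi-square per gene between the libraries of a group was 1.59 to 9.02, so no library was a copy of another.

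Each table was fitted alone for the genotype comparisons, and all 8 libraries together for LPS responses and the interaction, with edgeR 4.0.16 in R 4.3.3 (TMM, filterByExpr, glmQLFit, glmQLFTest, adjusted p by Benjamini-Hochberg over all genes tested, threshold 0.05). The standard error is the unshrunken log2 fold change divided by the square root of F. The log2 fold changes given include the small prior count of edgeR, so they can differ from the unshrunken values at low counts. Levels are CPM scaled by TMM over all 8 libraries, per kb of joined exon length where genes were compared. The fits were tested on simulated data first. Fewer than 3 libraries a group leave an exact permutation test no p below 0.333 (two-sided), so none was used. The floor was 3 counts per library, applied to both libraries of a group. Alternatives were DESeq2 1.42.0, library size only, RLE size factors, no filter, at least 10 counts in every library, a replicate block, each library left out, a fixed biological coefficient of variation of 0.1 or 0.4, leaving out *Gm42418*, a log2 fold change of at least 1, and another choice of libraries in the fit. The 10 genes, the pathway and marker lists and the motifs were chosen with earlier results of these data known. Genes named from a list are the 4 with the largest log2 fold change in size among those that passed in either genotype comparison, plus *Tyro3*, *Pros1*, *Adam17*, *Nr1h3* and *Pparg*; 1 further gene of this rule is not reported here. Likeness used log2(CPM + 0.5) for genes with a mean log2 CPM of at least 1.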

Additional observations from a re-analysis of the deposited data

Results flagged for a closer look

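For 7 of the 10 genes the effect of the genotype differed between LPS-stimulated and unstimulated cells in a test of the difference itself, the interaction of genotype and LPS over all 8 libraries tested with the quasi-likelihood method of edgeR and adjusted by Benjamini-Hochberg, which 32.5% of all 12541 genes passed. On the log2 scale the effect with LPS minus that without was 2.79 for *Siglec1* (SE 0.388), 1.91 for *Cd68* (SE 0.119), 1.87 for *Msr1* (SE 0.122) and 1.42 for *Mertk* (SE 0.2), where it was largest. Smaller positive differences were found for *Axl* (0.65, SE 0.0827), which was lower in 3x*Grk*-/- cells without LPS and did not pass the test with LPS, and for *Cd36* (0.32, SE 0.0861), which was higher in both. *Olr1* had a negative difference (−1.08, SE 0.124): its level rose by 1.02 with LPS in WT cells, and its value in 3x*Grk*-/- cells was −0.06. The macrophage markers moved alongside, with 9 of 10 having a positive interaction that passed the test, 1 a negative, and a median of 2.11, beside 16.5% and 16.0% of all genes. Their part in these differences was not tested.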

How the results depend on the processing

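The number of the 10 genes that passed the test was 8 without LPS and 7 with LPS. It was 9 for the LPS response of WT, 6 for that of 3x*Grk*-/- cells and 7 for the interaction. Of all genes tested, 44.7%, 48.6%, 60.3%, 55.4% and 32.5% passed in the same order. *Marco*, counted in the 7 with LPS and in both LPS responses, passed the filter only through its LPS-stimulated WT libraries, in which it was high. The biological coefficients of variation estimated by edgeR were 0.0306, 0.0573 and 0.0463 in the 3 fits. With a coefficient of 0.4 for every gene, the number of the 10 genes that passed was 3, 4, 3, 1 and 0 in that order. At the same setting the interaction passed for 72 genes of all 12541. Requiring a log2 fold change of at least 1 left 3 genes in the LPS response of 3x*Grk*-/- cells. Leaving out each library in turn gave 6 to 8, 7 to 8, 8 to 9, 5 to 6 and 6 to 7, where the library left alone in its group is assumed to vary like the others. In the LPS response of 3x*Grk*-/- cells, library size only moved *Cd36* to −0.22 and *Msr1* to −0.20 on the log2 scale, neither of which passed the test as reported, by construction of a scaling that moved the median of all genes to −0.23. The cause of the other changes was not tested.

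Of 772 values of single genes under these alternatives, 713 stayed on their side of the threshold, 52 no longer passed (26 of them at a coefficient of 0.4) and 7 newly passed, 2 of them (*Cd36* and *Msr1*, above) at a negative value that was 0.00 and 0.02 as reported. Of the 713, 17 were of *Cd36* in the LPS response of 3x*Grk*-/- cells, which was 0.00 as reported and lay on either side of 0 (−0.04 to 0.044 over these settings). A further 7 turned their sign, none of which passed the test as reported: *Axl* with LPS, *Scarb1* with LPS in 2 settings, and the interactions of *Gas6* in 3 and of *Marco* in 1. Over all genes, DESeq2 called 3086 in place of 5369 without LPS and 2643 in place of 4070 for the interaction, and a coefficient of 0.1 called 2905 and 2161. A coefficient of 0.4 called 448 without LPS, 782 in place of 5754 with LPS, 1110 in place of 7561 in WT and 850 in place of 6945 in 3x*Grk*-/- cells for LPS, and a log2 fold change of at least 1 left 1444, 1984, 2700, 2373 and 1375 in the order above. With library size only, the calls were 1968 higher and 3525 lower without LPS in place of 2647 and 2722, 2474 and 3572 with LPS in place of 2919 and 2835, 2443 and 5420 for LPS in WT in place of 3702 and 3859, and 2245 and 5200 for LPS in 3x*Grk*-/- cells in place of 3510 and 3435. Within the last 100 bases before the start, 2 of 5 motif matches by gene remained. The replicate numbers were shared by all groups, and the sources used here do not say whether they pair the libraries. Correlations of same-numbered deviations ran from −0.0268 to 0.0441 over all genes and from −0.133 to 0.201 over genes of higher level. A fit with the replicate block gave the same counts of 8, 7, 9, 6 and 7 and changed no call. Depth limits *Marco* and *Gas6* most, which had 0 to 3 counts in some libraries.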
